A study of Mus musculus with 18 samples.

Results

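Aminoacyl-tRNA synthetases join each amino acid to the tRNAs that carry it, the step that precedes every round of protein synthesis. The 35 synthetase genes described here were chosen by symbol from the 43432 genes of the deposited RNA-seq table. They comprise 20 genes for cytosolic enzymes and 15 genes for mitochondrial enzymes, whose symbols end in 2. The study cultured T cells of C57BL/6 mice and compared RNA-binding protein occupancy, mapped by the crosslinking method GCLiPP, and mRNA levels across T cell states. For RNA-seq there were 8 libraries, 1 for each combination of CD8 or Th2 lineage, stimulated or resting state, and presence or absence of actinomycin D, an inhibitor of transcription. All cells had grown on plates with anti-CD3 and anti-CD28 for 5 days per the labels, CD8 cells with IL-12 and IL-2, and Th2 cells, derived from CD4 T cells, with IL-4, anti-Ifn-gamma and IL-2. The study's methods instead describe a shorter time on the coated plates, followed by transfer to uncoated dishes with IL-2. Stimulated cells received PMA/Ionomycin 4 h before harvest, and resting cells received fresh medium. All cells, those for RNA-seq included, are recorded as UV irradiated at 254 nm with 8000 mJ. The study's methods describe actinomycin D as added after the PMA/Ionomycin treatment, at a stated dose and for several durations, and neither they nor the labels say which duration the sequenced cells had. The methods also describe pooled mice and oligo-dT selection of RNA. The GCLiPP data came from 10 libraries (4 CD8, 6 Th2) and were used as 1 peak list pooled over them.

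Most amino acids are handled by a pair of synthetases encoded by separate nuclear genes, the second of which is imported into mitochondria to serve mitochondrial protein synthesis. Gars and Kars are exceptions, since each encodes both the cytosolic and the mitochondrial form, and Eprs joins the glutamyl and prolyl enzymes in 1 chain. Farsa and Farsb encode the 2 subunits of the cytosolic phenylalanyl enzyme. Several cytosolic enzymes assemble with the scaffold proteins encoded by Aimp1, Aimp2 and Eef1e1 into the multi-synthetase complex. Many cytosolic synthetase genes are targets of ATF4, the transcription factor of the amino acid and integrated stress responses, which binds composite elements called CARE together with C/EBP partners.

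Because ATF4 is a known regulator of cytosolic synthetase genes, the promoters were searched for the CARE core, spelled TGATGNAA, on both strands. RefSeq promoters of build GRCm38.p6, running from 250 bases before to 50 bases after the annotated start, were matched for 26 of the 35 genes, and the other 9 were not analysed here. The core was present in a promoter of 5 of 13 cytosolic genes (Aars, Gars, Iars, Tars and Yars) and of 0 of 13 mitochondrial genes. It was in 3.97% of all 32851 promoters. A gene counted when any of its promoters matched, so shares of genes and of promoters are unlike measures. A match is a description of the letters and does not show binding. For each of these 5 genes a stretch of 30 bases that holds the core is given 5′ to 3′ on the strand of the gene, with the core in capitals. In 4 of the 5 stretches the core lay on the strand opposite to the gene and so reads TTNCATCA.
Aars chr8:111033840-111033869, + strand: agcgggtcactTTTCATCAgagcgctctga
Gars chr6:55037960-55037989, + strand: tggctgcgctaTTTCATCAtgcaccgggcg
Iars chr13:49682126-49682155, + strand: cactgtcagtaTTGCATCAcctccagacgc
Tars chr15:11399655-11399684, - strand: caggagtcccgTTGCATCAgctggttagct
Yars chr4:129189895-129189924, + strand: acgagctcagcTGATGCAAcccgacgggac
The E-box CACGTG is the palindromic site of MYC and related factors. Counted in the same way, it was found for 4 of the 13 cytosolic genes (Aars, Farsb, Iars and Tars) and 1 of the 13 mitochondrial genes (Ears2). Of all single promoters 7.15% held it. Aars, Iars and Tars held both motifs, and no E-box overlapped a CARE core in the stretches shown.

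The values are the authors' read counts divided by 1 scaling factor per library and are called scaled reads. Reads assigned to genes, recovered from the scaled values, ranged from 24154849 to 31042504 per library. With 1 library per condition, spread was estimated across the 8 libraries in a limma fit, and errors are standard errors of that fit. All 35 synthetases exceeded the minimum mean of 50 scaled reads, as did 10972 genes in all. T cell markers summed to 191146 to 575587 scaled reads per library, against 82.9 to 1361 for 10 markers of other cells. Gzmb alone gave 92569 of the lowest T cell sum (untreated resting Th2) and 476654 of the highest (untreated stimulated CD8). Cd3e was at 4479 to 7500. The untreated stimulated CD8 library held 281 scaled reads of Cd4, against 25.9 to 33.8 in the other CD8 libraries, and results that turn on this library are given with and without it. Ribosomal protein genes took 2.77% to 3.57% of the values with actinomycin D, against 1.83% to 2.16% without it. All values are shares of the RNA sequenced, so a change in the amount of RNA per cell cannot be told apart from a change in a gene's share.

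Cytosolic synthetase mRNAs were abundant and mitochondrial ones were not. Scaled reads per kb of annotated exon had a median of 1324 over the 20 cytosolic genes, with a range of 433 to 4245, against 92.9 over the 15 mitochondrial genes, with a range of 37.2 to 480.2. The median over all genes above the minimum was 213. All 20 cytosolic genes and 3 of 15 mitochondrial genes (Iars2, Rars2 and Hars2) stood above it. The glycyl enzyme gene Gars ranked first at 4245 ± 1221 scaled reads per kb (SD over 8 libraries, n = 8 conditions), followed by the asparaginyl enzyme gene Nars at 2552 ± 489.9. Kars (lysyl), Sars (seryl), Dars (aspartyl) and Iars (isoleucyl) followed at 1664, 1654, 1647 and 1567, with SDs of 329.8 to 425 over the 8 conditions. These SDs include differences between conditions and are not errors of a level, and the order of these genes was not tested. The lowest cytosolic gene was Farsa at 433 ± 117, although its partner subunit gene Farsb stood at 1505 ± 302. The lowest of all were Aars2 at 46.1 ± 13.2 and Ears2 at 37.2 ± 13.4. Ranks per kb depend on the length used, the union of exons over all annotated transcripts. It was 4538 bases for Farsa and 2620 for Farsb, whose undivided means were 1964 and 3944 scaled reads. Undivided means of Gars (13239) and Eprs (13063) were close, yet with lengths of 3119 and 18102 bases Eprs ranked 16 per kb.

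For 12 amino acids both a cytosolic and a mitochondrial gene carry the same stem in this set, and the cytosolic gene was higher per kb in all 12. The ratio of means had a median of 10.3. It was widest for the asparaginyl pair (Nars over Nars2, 37.0) and the seryl pair (Sars over Sars2, 17.8), and narrowest for the isoleucyl pair (Iars over Iars2, 3.26) and the tyrosyl pair (Yars over Yars2, 3.16). The value of Iars2 is uncertain, since 22.7% of its 50-nt words are shared with other transcripts, mostly of Rab3gap2 on the opposite strand. Aars shares 13.8%, mostly with Exosc6 on the same strand, and Fars2 shares 8.9%, mostly with Nrn1. Each of the other synthetases shared at most 7.3%, and the strand setting of the counting is not given in the sources used here.

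**Figure D1:**
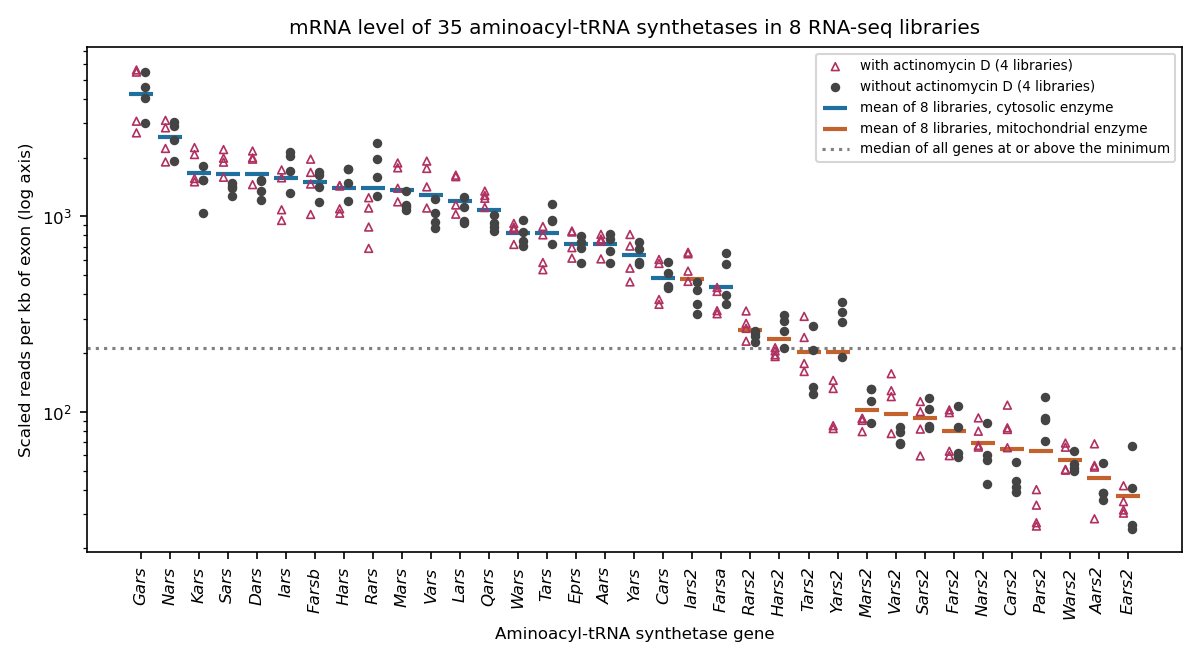
Scaled reads per kb of exon (log axis) for each of the 35 synthetase genes, ordered by mean; open triangles are the 4 libraries with actinomycin D, filled circles the 4 without, and bars the means over 8 libraries. The 20 cytosolic genes lie between means of 433 and 4245, and the mitochondrial genes between 37.2 and 480.2. Pars2 and Yars2 are the genes whose triangles and circles are farthest apart.

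The actinomycin D comparison asks which mRNAs keep or lose their share when new transcription is blocked. The mitochondrial prolyl and tyrosyl enzyme genes, Pars2 and Yars2, lost most of their share. The arginyl gene Rars fell less, and the mitochondrial cysteinyl gene Cars2 showed the largest rise, which no longer passed with scaling to ribosomal protein genes. Values are given for the stimulated CD8, resting CD8, stimulated Th2 and resting Th2 libraries, in that order. Pars2 (ENSMUSG00000043572, chr4:106651069-106655282, mm10) had 80.5, 83.7, 124 and 103 scaled reads with actinomycin D, against 220.5, 282, 288 and 369.8 without it. Every library with the drug was below every library without it, and the fit gave a log2 change of -1.56 ± 0.14 (limma, adjusted p = 0.000152), a 2.94-fold fall. Yars2 (ENSMUSG00000022792, chr16:16302965-16309640, mm10) had 456, 414, 267 and 258 scaled reads with actinomycin D, against 1149.8, 912, 1024 and 603 without it. Again the groups did not overlap, with a log2 change of -1.41 ± 0.13 (adjusted p = 0.000171), a 2.65-fold fall. Rars (ENSMUSG00000018848, chr11:35808381-35834506, mm10), a member of the multi-synthetase complex, had 4021, 3561, 2847 and 2214 scaled reads with actinomycin D, against 6362, 5163, 7627 and 4099.9 without it. Its stimulated Th2 pair fell most, by 1.42 on the log2 scale, and the fitted change was -0.88 ± 0.15 (adjusted p = 0.00222). All 3 falls kept their direction and threshold in each alternative setting run.

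Over both states, 8 of 35 synthetases fell with actinomycin D, against 31.8% of all genes tested, and 11 rose, against 30% of all genes. With scaling to ribosomal protein genes 0 rose and 21 fell, and the median log2 change of all genes moved to -0.59. Under the authors' scaling the median of the 35 was 0.06, against 0.00 for all genes. In a fit with the 4 matched pairs as a block, 9 of the 35 passed, namely Cars2, Iars2, Qars, Sars and Vars, which rose, and Iars, Pars2, Rars and Yars2, which fell, against 1842 rises and 2403 falls among all genes. The other falls were smaller, and came from the isoleucyl gene Iars (-0.45), the threonyl gene Tars (-0.44), the mitochondrial histidyl gene Hars2 (-0.40), Farsa (-0.37) and the histidyl gene Hars (-0.30). Hars and Hars2 lie head to head and overlap on opposite strands. Of the 11 that rose, 7 were cytosolic and 4 mitochondrial.

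Cars2 had 474, 588, 599.5 and 783 scaled reads with actinomycin D, against 299.9, 321, 282 and 399 without it. The groups did not overlap, and the log2 change was 0.90 ± 0.13 (adjusted p = 0.000899). Iars2 had 5820.3, 5716, 4661 and 4130.1 scaled reads with actinomycin D, against 3719.6, 4108, 2809.9 and 3167 without it, also without overlap (0.56 ± 0.08, adjusted p = 0.00104). The cytosolic valyl gene Vars had 9867, 10754, 6186 and 7938 scaled reads with actinomycin D, against 6844, 5865, 5235 and 4906 without it. It rose in each of the 4 pairs, by 0.58 ± 0.10 overall (adjusted p = 0.00168), while its mitochondrial counterpart Vars2 rose in 3 pairs and by 0.64 ± 0.16 (adjusted p = 0.0101). The seryl gene Sars had 10205, 11298, 8151 and 9738 scaled reads with actinomycin D, against 7597, 7182, 7331 and 6546 without it, a change of 0.45 ± 0.09 (adjusted p = 0.0033) with no overlap. The glutaminyl gene Qars, too, did not overlap and changed by 0.44 ± 0.08 (adjusted p = 0.00332). Dars (0.42), the methionyl gene Mars (0.39), the mitochondrial asparaginyl gene Nars2 (0.34), the leucyl gene Lars (0.33) and Kars (0.32) made up the rest. Scaled to ribosomal protein genes, which shifts the median of all genes to -0.59, 9 of the 11 rises changed sign, and Cars2 and Vars2 stayed above 0 without passing the threshold.

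Genes of the multi-synthetase complex were called in both directions. Of its 8 enzyme genes, under the authors' scaling, Dars, Kars, Lars, Mars and Qars rose (5 of 8), Iars and Rars fell (2 of 8), and Eprs was at 0.09 ± 0.11, against 30% of all genes higher and 31.8% lower. With scaling to ribosomal protein genes 0 of the 8 rose and 3 fell, and with the block 1 rose and 2 fell. Its scaffold genes also differed: Eef1e1 was at -1.17 ± 0.16 and Aimp2 at -1.04 ± 0.16, both lower, whereas Aimp1 was at 0.30 ± 0.09, higher. Among 13 tested partners of tRNA charging, 7 fell and 4 rose, with a median of -0.29, against 31.8% and 30% of all genes. With scaling to ribosomal protein genes 9 fell and 0 rose, and with the block 6 fell and 1 rose. In mitochondria, glutaminyl-tRNA is made by an amidotransferase of 3 subunits, and their genes parted: Gatc was at -0.97 ± 0.11 and Qrsl1 at -0.63 ± 0.12, both lower, and Gatb was at 0.51 ± 0.12, higher. Dtd1, which removes D-amino acids from tRNA, rose by 0.70 ± 0.10. The values of Aimp1 and Gatb are smaller in size than the shift of -0.59 that scaling to ribosomal protein genes brings, and that of Dtd1 is larger.

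**Figure D2:**
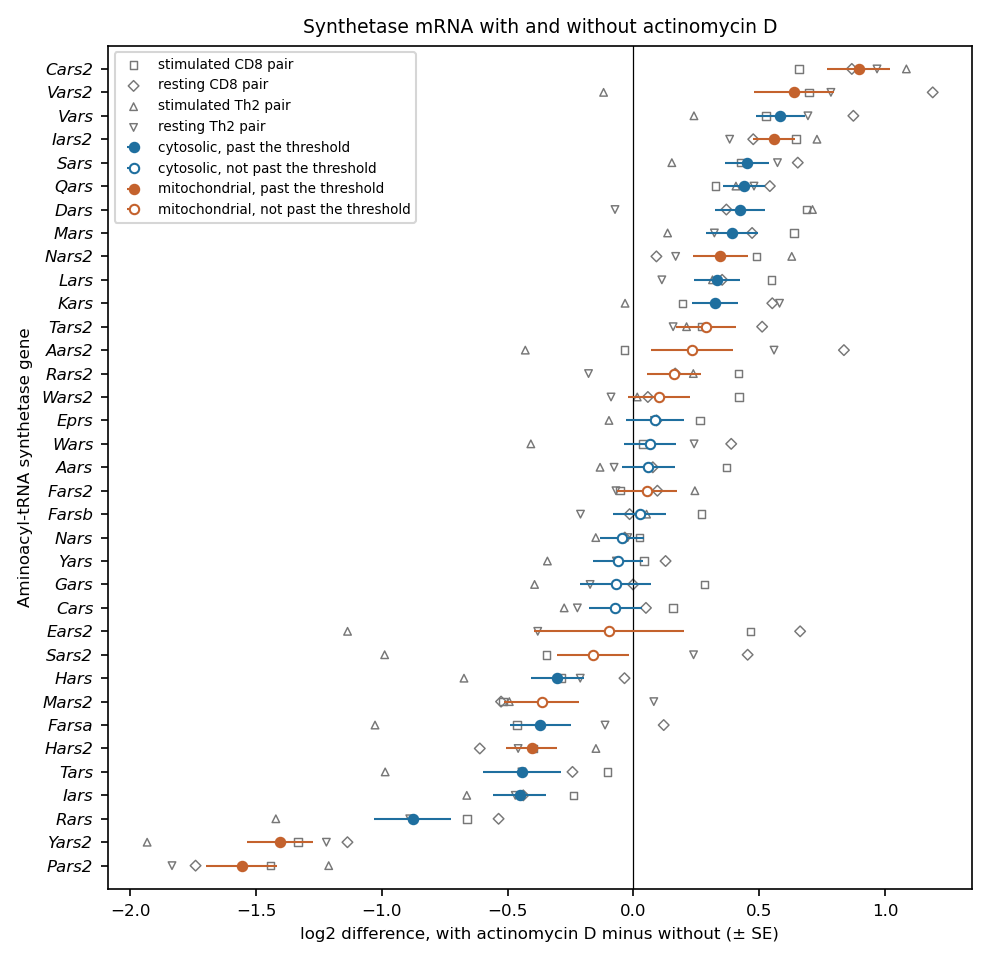
Log2 difference with minus without actinomycin D for the 35 synthetase genes: large circles with bars are the fitted mean ± SE, filled where the adjusted p passed 0.05, and open grey symbols are the 4 matched pairs of libraries. Pars2 and Yars2 lie apart from all other members at -1.56 and -1.41, and Cars2 is highest at 0.90.

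Taken by state, 8 synthetases rose and 5 fell with actinomycin D in resting cells, against 21.0% and 25.3% of all genes, and 7 rose and 7 fell in stimulated cells, against 23.6% and 27.3%. With scaling to ribosomal protein genes 0 rose and 27 fell in resting cells, and 2 rose and 10 fell in stimulated cells. The median log2 change of all genes under that scaling was -0.91 in resting and -0.28 in stimulated cells. Aars2 rose (0.70) and passed the threshold in the resting pairs, and Dars (0.70), Farsa (-0.74) and Sars2 (-0.67) passed it in the stimulated pairs. Farsa, Dars and Sars2 had 0.00, 0.15 and 0.35 in the resting pairs. A difference between the states was not established, since the limma test of it (the interaction) passed for 0 synthetases. Its adjusted p was 0.0779 for Farsa, 0.0991 for Dars, 0.0564 for Sars2 and 0.0933 for Aars2. In stimulated cells edgeR called 9 and DESeq2 called 8. Leaving out 1 library at a time gave 3 to 15 calls in resting cells and 5 to 15 in stimulated cells. The lowest counts came without the resting Th2 library with actinomycin D in resting cells and without the stimulated Th2 library with actinomycin D in stimulated cells. Without the resting CD8 library with actinomycin D, 12 of 35 synthetases passed over both states (6 higher, 6 lower). The drug-treated cells were also described with another RNA preparation, so the drug and the preparation cannot be told apart.

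Synthetases took a larger share of the mRNA in CD8 cells than in Th2 cells. The 35 genes together took 0.511% to 0.660% of the values in the 4 CD8 libraries, against 0.468% to 0.484% in the 4 Th2 libraries. In the fit, 13 of 35 synthetases were higher in CD8 cells, against 18.1% of all genes tested, and 2 were lower, against 18.7%. Of the 20 cytosolic genes 10 were higher and 0 lower, with a median log2 difference of 0.34, whereas of the 15 mitochondrial genes 3 were higher and 2 lower, with a median of 0.10. The median over all genes was 0.02.

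The values that follow are for stimulated and resting cells with actinomycin D, then stimulated and resting cells without it. Gars had 17504, 17068, 14382 and 17082 scaled reads in CD8 cells, against 9570.2, 8343, 12565 and 9399 in Th2 cells. The lowest CD8 library was above the highest Th2 library, and the log2 difference was 0.74 ± 0.14 (adjusted p = 0.00637). Nars had 13496, 12364, 13268 and 12658 scaled reads in CD8 cells, against 9696, 8269, 10754 and 8398 in Th2 cells, with no overlap and a difference of 0.49 ± 0.09 (adjusted p = 0.00493). Iars had 9110.4, 8300.5, 10749 and 11244 scaled reads in CD8 cells, against 5700.0, 5025, 9021 and 6958 in Th2 cells. Its groups overlapped, but each of the 4 matched pairs was higher in CD8 cells (0.59 ± 0.11, adjusted p = 0.00479). The cysteinyl gene Cars differed by 0.51 ± 0.11, Farsb by 0.46 ± 0.11 and the tyrosyl gene Yars by 0.45 ± 0.10, all without overlap of the groups. Lars (0.45), Kars (0.45), Vars (0.44) and Mars (0.34) were the other cytosolic genes past the threshold. Yars2 (0.55), Nars2 (0.42) and Iars2 (0.39) were the mitochondrial ones.

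Tars2 and Fars2, the mitochondrial threonyl and phenylalanyl enzyme genes, were lower in CD8 cells. Tars2 had 1115, 1224, 923 and 858 scaled reads in CD8 cells, against 1664, 2134, 1437 and 1912 in Th2 cells. No values overlapped, and the log2 difference was -0.79 ± 0.12 (adjusted p = 0.00215), a 1.73-fold lower level. Fars2 had 343, 361, 356 and 338 scaled reads in CD8 cells, against 569, 588, 480.2 and 617 in Th2 cells, again without overlap (-0.68 ± 0.12, adjusted p = 0.00408). The cytosolic counterparts Tars, Farsa and Farsb had differences of 0.33, 0.19 and 0.46, the last of which passed. Of the 5 genes with a CARE core in the promoter, Gars, Iars and Yars were among those higher in CD8 cells, and Tars (0.33) and Aars (0.03) did not pass. By comparison, 10 of all 20 cytosolic genes were higher, and a link of the core to the lineage was not tested.

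**Figure D3:**
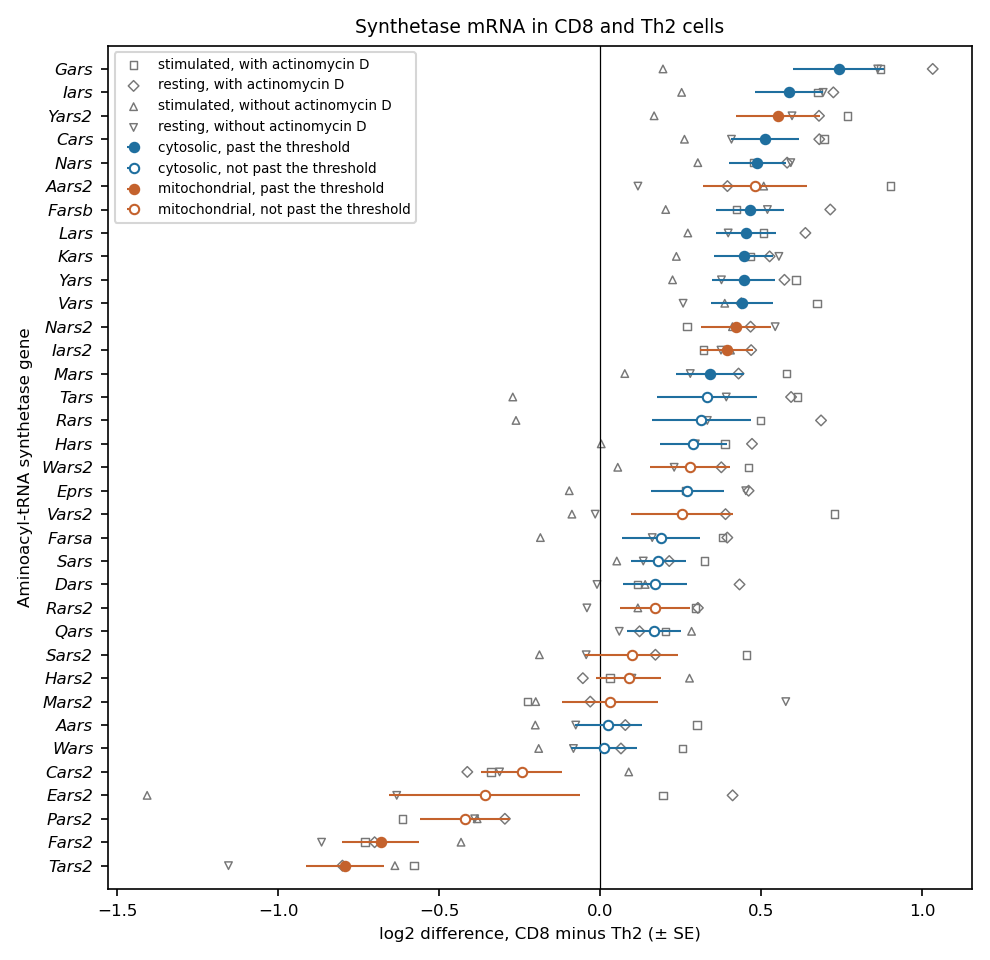
Log2 difference of CD8 minus Th2 for the 35 synthetase genes: large circles with bars are the fitted mean ± SE, filled where the adjusted p passed 0.05, and open grey symbols are the 4 pairs matched for state and drug. Gars is highest at 0.74, and Tars2 and Fars2 are lowest at -0.79 and -0.68.

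Of 22 genes for amino acid synthesis and transport, 13 were higher in CD8 cells, against 18.1% of all genes, and 0 were lower, against 18.7%, with a median of 0.49. The list was chosen with earlier results of these data known, so the counts are a description. How they change when 1 library is left out was not computed. The largest differences were those of the cationic amino acid transporter Slc7a3 (1.48 ± 0.10), the cystine transporter Slc7a11 (1.21 ± 0.16) and the asparagine synthetase Asns (1.08 ± 0.10). With actinomycin D, 12 of the 22 rose, against 30% of all genes, and 3 fell, against 31.8%, whereas with scaling to ribosomal protein genes 1 rose and 9 fell. With the block 7 rose and 3 fell. Aldh1l2 (1.16), Gpt2 (0.80) and Pycr1 (0.74) rose most, each by more than the size of the -0.59 shift under scaling to ribosomal protein genes, and the transporters Slc38a2 (-1.68), Slc7a1 and Slc38a1 (-0.65) fell. Among the charging partners 3 of 13 were higher in CD8 cells (Dtd1, Eef1e1 and Aimp1), against 18.1% of all genes, and 1 was lower (Gatb), against 18.7%.

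For 10 of the 13 synthetases higher in CD8 cells the untreated stimulated pair gave the smallest of the 4 differences, which is the pair that holds the library with 281 scaled reads of Cd4. Without that library 18 were higher and 3 lower. Without the resting Th2 library with actinomycin D, or without the resting CD8 library with actinomycin D, 5 passed (3 higher, 2 lower), and edgeR on recovered reads of 7 libraries called 4 higher and 2 lower. Markers of other cells also moved with the lineage. The 10 markers summed to 82.9 to 543 scaled reads in CD8 libraries, against 724 to 1361 in Th2 libraries. The red cell gene Hba-a1 was at 0 in all but 1 library, and the part of these markers in the result was not tested.

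Stimulation for 4 h changed few synthetases. In untreated cells 1 of 35 rose, against 14.7% of all genes, and 1 fell, against 13.4%. With scaling to ribosomal protein genes 0 rose and 9 fell, and the median log2 change of all genes was -0.34. Farsa had 2582 and 2937 scaled reads in stimulated CD8 and Th2 cells, against 1806 and 1615 in resting CD8 and Th2 cells. Both stimulated values exceeded both resting values, and the log2 change was 0.69 ± 0.17 (adjusted p = 0.025). Nars2 had 395 and 297 scaled reads in stimulated CD8 and Th2 cells, against 609 and 417 in resting CD8 and Th2 cells, a change of -0.56 ± 0.15 (adjusted p = 0.0353). Each of the 2 calls was lost when any 1 of the untreated resting Th2, stimulated Th2 or resting CD8 libraries was left out. Nars2 was also lost without the untreated stimulated CD8 library and without any 1 of the resting Th2, resting CD8 and stimulated CD8 libraries with actinomycin D.

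The cytosolic genes with the next largest values were Rars (0.60 ± 0.22) and Kars (0.40 ± 0.13), and those at the low end were Aars (-0.35 ± 0.15), Dars (-0.25 ± 0.14) and Mars (-0.15 ± 0.15). The mitochondrial genes with the largest values were Yars2 (0.55 ± 0.19), Sars2 (0.41 ± 0.20) and Ears2 (0.32 ± 0.42), and after Nars2 the lowest were Hars2 (-0.37 ± 0.14) and Pars2 (-0.36 ± 0.20). None of these 10 passed the threshold. Without the untreated stimulated CD8 library, 7 rose (Ears2, Farsa, Hars, Kars, Rars, Tars and Yars2) and Hars2 fell. The scaffold gene Eef1e1 rose by 1.58 ± 0.23 (adjusted p = 0.00426), more than any synthetase, and Gatb was at -0.56 ± 0.17 and lower.

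Among cells treated with actinomycin D, 0 of 35 synthetases differed between stimulated and resting cells, against 0.0911% of all genes higher and 0.0% lower (limma). At an unadjusted p of 0.05, 3 synthetases passed, and edgeR and DESeq2 called 0. The 4 libraries with actinomycin D fitted alone gave 7 calls, of which Farsb, Dars and Rars were higher and Aars2, Sars2, Vars2 and Cars2 lower. The test of whether the difference between stimulated and resting cells changed with the drug passed for 0 synthetases, against 7.06% of all genes higher and 7.44% lower, with 6 at an unadjusted p of 0.05. There, edgeR called 0, and DESeq2 and quantile normalisation each called Sars2, lower. With scaling to ribosomal protein genes 10 passed, all higher, among them Dars (1.19), Nars2 (1.06) and Iars2 (0.89). That scaling moved the median of all genes in this test to 0.62. Without the untreated stimulated CD8 library 6 passed, all lower (Farsa, Kars, Rars, Sars2, Tars and Wars). The test of whether the response to stimulation differed between CD8 and Th2 cells passed for 0 synthetases and 0.0% of all genes in either direction, with 0 synthetases at an unadjusted p of 0.05, and edgeR called 0 synthetases. That fit left 2 residual degrees of freedom.

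Of the 35 synthetases, 9 passed in none of the 3 main comparisons (untreated stimulation, actinomycin D over both states, and lineage), 17 in 1, 8 in 2 and 1, Nars2, in all 3. The 9 were Aars, Eprs and Wars in the cytosol and Aars2, Ears2, Mars2, Rars2, Sars2 and Wars2 in mitochondria.

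GCLiPP marks RNA stretches crosslinked to protein, and its peaks here are 70 nt wide in 3′ UTRs. The list holds 27729 peaks with scores of 13 to 22514 and a median of 24, and the meaning of the score is not given in the sources used here. A peak was assigned to 19 of 20 cytosolic and 5 of 15 mitochondrial synthetase mRNAs (Iars2, Mars2, Pars2, Sars2 and Wars2). Of all genes above the minimum 59.1% had a peak. More abundant mRNAs had a peak more often. Of the genes within the range of means of the cytosolic synthetases 90.3% had a peak, and 62.7% of those within the range of the mitochondrial ones. The latter range reaches 4266 scaled reads through Iars2 alone, and the next highest mean was 1408.5, of Tars2. So 62.7% is not the share for genes at the level of most mitochondrial synthetases. Qars, with a mean of 7098 scaled reads, was the cytosolic gene with no peak. The study's methods describe peak calling within 3′ UTRs, and transcripts that placed the centre there were preferred, so all 68 centres lay in 3′ UTRs by construction. The median distance after the stop codon was 123 nt, and 44 centres lay within 200 nt of it. Distances are from the stop codon of the transcript used, which was not the same for all Wars peaks. Some 3′ UTRs are shorter than 200 nt, such as that of Vars (67 nt), and no share over all peaks was computed.

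The highest scores belonged to Vars (228), Sars (192), Yars (143), Kars (107) and Wars (95). The Vars peak was centred 7 nt after the stop codon of a 3′ UTR only 67 nt long, so the stretch shown for it begins in the coding sequence. Nars had 9 peaks, Wars 8 and Iars 6, and neighbouring peaks of 1 gene often overlapped. The 9 peaks of mitochondrial synthetases scored at most 37, in Iars2. The central 30 bases of the 5 highest peaks are shown because they mark the highest scores in this family. They are read from GENCODE vM21 transcripts (mm10) on the strand of the mRNA, with T for U and any poly(A) signal AATAAA, AU-rich pentamer ATTTA or Pumilio element TGTANATA in capitals.
Vars chr17:35016248-35016277, + strand: tgctgtgaccccccattccaaccctcagcc
Sars chr3:108426623-108426652, - strand: tgactggtgaagccacgcAATAAAgcatct
Yars chr4:129219077-129219106, + strand: gctagattggacactccctaaacaagccag
Kars chr8:111993501-111993530, - strand: tggccactgcagtccaacctccacaagaga
Wars chr12:108861072-108861101, - strand: ggtgatcaagcgatgctaatgttgtgtggt
Only the Sars stretch held one of the 3 motifs, a poly(A) signal. The motifs were chosen after the data were seen. Over the whole 70 bases, which could be read for 66 of the 68 peaks, the poly(A) signal was in 9 of 66 synthetase windows, or 13.6%, against 6.48% of 25723 windows of all genes. The AU-rich pentamer was in 4 windows (6.06%), of Dars, Farsa and Iars, against 7.86% of all. The Pumilio element was in 0 synthetase windows, against 1.72% of all. The searched strand was that of the mRNA. Peaks overlap within genes, so windows are not independent.

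**Figure D4:**
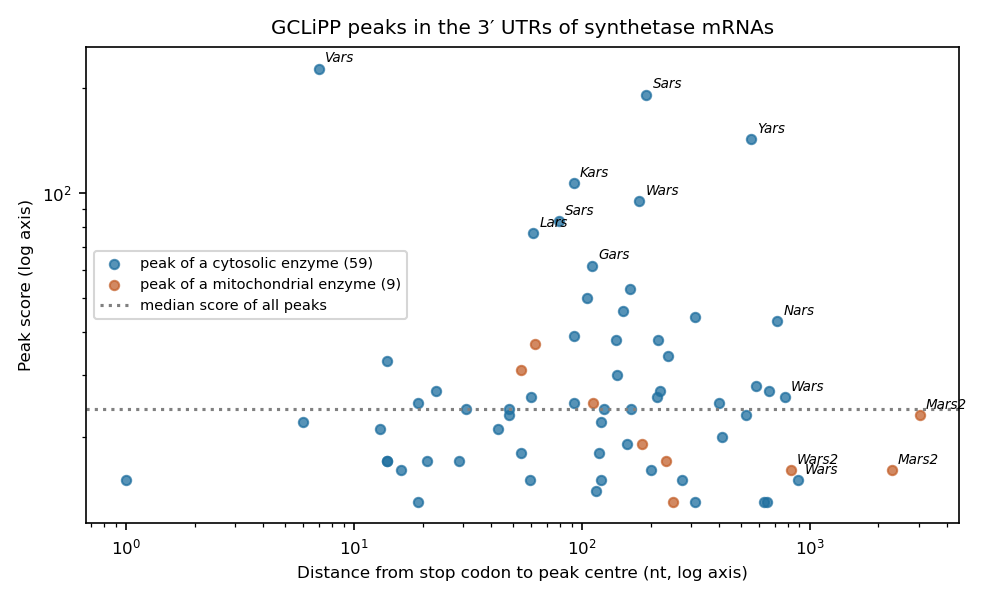
Score (log axis) of each of the 68 GCLiPP peaks of synthetase mRNAs against the distance of its centre from the stop codon (log axis); blue points are the 59 peaks of cytosolic and orange points the 9 peaks of mitochondrial synthetases. The 5 highest scores, 95 to 228, are all of cytosolic genes, and the dotted line is the median score of all peaks, 24.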

How the data were processed

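RNA-seq comprised 8 libraries, 1 per condition, so p-values measure only the spread between these libraries that the model leaves. The submitters' processing notes name STAR, Bowtie2 and mm10. How reads were counted, and with which strand setting, was not given in the sources used here. The signal values deposited by the authors are each gene's reads scaled by a factor specific to the library, and 100% were whole multiples of 1 read within 0.01 read. FPKM, the unit named in the methods, would not give such multiples. Alternatives were other pseudocounts, minimums, scalings and designs, and leaving out each library. The score deposited by the authors for each pooled GCLiPP peak has no stated meaning. A second deposited table, holding the authors' own fold changes, was not used.

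Values were tested as log2(value + 1) in genes with a mean of at least 50 (10972 of 43432), with limma 3.58.1 (trend) in R 4.3.3, terms for cell type and for stimulation by actinomycin D, and Benjamini-Hochberg adjustment over all genes at 0.05. Fold changes on this scale understate those of low genes. edgeR 4.0.16 and DESeq2 1.42.0 were alternatives on reads recovered for 7 libraries (11448 genes). The stimulated CD8 library with actinomycin D was left out of them, as it did not pass a separate recovery check. Its values, too, were 100% whole multiples of 1 read by the measure given above. Scripts used python 3.11.15, numpy 2.4.6 and pandas 2.3.3 and were tested on simulated data. Lengths and coordinates came from GENCODE vM21 (mm10) and promoters from RefSeq GRCm38.p6. Named with values were up to 10 synthetases past the threshold in each direction, the 3 largest untreated stimulation values per compartment and direction, uncertain members, and up to 3 genes in each direction of the other lists. Members and lists were chosen with earlier results of these data known. Of 18 class I enzymes 7 rose and 3 fell with actinomycin D, and of 17 class II enzymes 4 rose and 5 fell, against 30% and 31.8% of all genes. With scaling to ribosomal protein genes 0 rose in either class, and 10 and 11 fell, with the median of all genes at -0.59. One marker gene and one promoter stretch are not reported here.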

Additional observations from a re-analysis of the deposited data

Results flagged for a closer look

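No synthetase was flagged. In the lists set beside them, the response to stimulation differed with and without actinomycin D for 3 genes, by the interaction term of the limma fit across all genes. The glutamine transporter Slc1a5 changed by -0.16 with the drug and 1.44 without it, a difference of -1.60 (adjusted p = 0.00998). The stress-induced mTORC1 inhibitor Ddit4 changed by 1.19 with the drug and -1.50 without it, a difference of 2.68 (adjusted p = 0.00517). The kinase gene Eif2ak3 (PERK) changed by 0.47 with the drug and -0.89 without it, a difference of 1.36 (adjusted p = 0.0108). All are log2 changes, stimulated minus resting.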

How the results depend on the processing

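Counts are synthetases past the threshold, and causes of the shifts were not tested. Scaling to ribosomal protein genes also moved the medians of all genes, as given above. Untreated stimulation gave 2, but 1 with no minimum, 9 with scaling to ribosomal protein genes, 4 with quantile normalisation and 0 in the 4 untreated libraries alone. Stimulation with actinomycin D gave 0, but 7 in the 4 libraries with the drug alone. The interaction gave 0, but 10 with ribosomal protein scaling, 1 with quantile normalisation and 1 with DESeq2. Actinomycin D in resting cells gave 13, but 27 with ribosomal protein scaling, and in stimulated cells 14, but 9 with edgeR and 8 with DESeq2. CD8 against Th2 gave 15, but 6 with edgeR. Of the 68 peaks 36 scored at least the median of all peaks.

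Leaving out 1 library at a time gave 0 to 8 for untreated stimulation, 0 to 0 for stimulation with the drug, 0 to 6 for the interaction, 3 to 15 for the drug in resting cells, 5 to 15 in stimulated cells, 12 to 21 over both states and 5 to 21 for CD8 against Th2. With the replicate block of 4 matched pairs, the drug over both states gave 9 (5 higher, 4 lower), against 19 without it, and 1842 higher and 2403 lower of all genes, against 3291 and 3485. For the GCLiPP libraries the experiment numbers could not be used, since these libraries were pooled in 1 peak list.

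Scaling to ribosomal protein genes reversed 15 values. In resting cells these were Vars (-0.12), Aars2 (-0.20), Iars2 (-0.48), Kars (-0.34), Qars (-0.39), Sars (-0.29), and over both states Vars (-0.0049), Nars2 (-0.24), Lars (-0.26), Dars (-0.17), Iars2 (-0.0304), Kars (-0.27), Qars (-0.15), Mars (-0.20) and Sars (-0.14). Of the other gene values under the alternatives, 773 kept and 237 lost their call. At 1 library per condition, differences near the threshold were not resolved.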

Other observations

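Genes of the integrated stress response, which controls many cytosolic synthetase genes, formed another list, of which 14 of 15 passed the minimum. With actinomycin D 3 rose, against 30% of all genes, and 8 fell, against 31.8%, and with scaling to ribosomal protein genes 1 rose and 10 fell. Under that scaling the median of all genes was -0.59, and -0.34 for untreated stimulation. Sesn2 (-2.76), Chac1 (-2.38) and Ddit4 (-1.70) were lowest, and the phosphatase subunit gene Ppp1r15a (1.13), Nupr1 (0.92) and the amino acid sensor kinase gene Eif2ak4 (0.71) were highest in log2 change. In CD8 cells 3 were higher than in Th2 cells and 3 lower, against 18.1% and 18.7% of all genes, so this list stood near the share of all genes. Eif2ak3 (1.09), Chac1 (0.86) and Atf4 (0.42) were higher, and Atf3 (-1.66), Ddit3 (-0.73) and Eif2ak2 (-0.38) lower. With untreated stimulation Ppp1r15a (1.05) rose and Ddit4 (-1.50) and Eif2ak3 (-0.89) fell, 1 and 2 of 14, and with scaling to ribosomal protein genes 0 rose and 5 fell. Of 22 amino acid supply genes 5 rose with untreated stimulation, against 14.7% of all genes, and 1 fell, against 13.4%, while with scaling to ribosomal protein genes 1 rose and 6 fell. The rises were led by Slc1a5 (1.44), Slc7a1 (0.88) and Slc38a1 (0.65), with Gpt2 at -0.67.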
